A study of Mus musculus with 24 samples.

Results

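Microtubules are hollow polymers of alpha- and beta-tubulin, and a mouse cell can draw each subunit from several genes whose products are called isotypes. The isotypes are close copies along most of their length and differ mainly in the acidic tail at the carboxyl end, where enzymes add or remove glutamate, glycine and tyrosine and where motors and associated proteins bind. In liver, microtubules carry secretory vesicles and lipid droplets in hepatocytes and build the spindle of cells that divide. The 10 alpha- and beta-tubulin genes described here are Tuba1a, Tuba1b, Tuba1c, Tuba4a, Tubb2a, Tubb2b, Tubb3, Tubb4b, Tubb5 and Tubb6, which were taken by symbol from the 53467 rows of the count table. All 10 were found once each and all 10 passed the filter on low values. They had been chosen with values in these livers already known, and which comparison drew the choice is not recorded. Comparisons that hold saline livers were taken as used by the choice and are given as a description, where thresholds serve to count members and no p-value of a member is printed. For comparisons among TAA livers p-values are printed, and they are free of the choice only if it did not use those livers.

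The data were RNA sequencing counts from snap-frozen liver of 24 male C57BL/6JAusb mice, 1 library per mouse. The mice were aged 14 to 15 weeks at plasmid injection, and livers were taken after the course of treatment given below. Every mouse, controls included, received 0.8 µg of the Sleeping Beauty (SB) transposase plasmid by hydrodynamic tail vein injection (HTVI), which reaches only some hepatocytes. A control set had no other plasmid and was divided into SB + saline (n = 4) and SB + TAA (n = 4). The other mice also received 10 µg of a plasmid for myristoylated AKT with 10 µg of one for human c-Met (SB/AKT/c-Met) or human NRasV12 (SB/AKT/NRas). They make up the groups c-Met + saline (n = 3), c-Met + TAA (n = 4), NRas + saline (n = 4) and NRas + TAA (n = 5), in short names that leave out SB and AKT, which all these mice received. Saline or thioacetamide (TAA), a hepatotoxin that causes chronic injury and fibrosis, was given intraperitoneally from days 8 to 10 after HTVI, with 10 to 11 injections over 5 to 6 weeks. TAA was given at 100 mg/kg first and at 200 mg/kg thereafter.

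The libraries held 2152510 to 3399247 counts. Human NRAS had 28 to 768 counts in the 9 NRas livers and at most 2 in the other 15, and human MET had 2 to 31 counts in the 7 c-Met livers and none elsewhere. The transgenes followed the labels in every liver. NRas + saline 1 carried only 12.3 CPM (counts relative to the scaled library total) of NRAS against 55.3 to 218 in the other 3 livers of its group, and c-Met + TAA 1 carried 0.768 CPM of MET (2 counts) against 4.93 to 10.9 in the rest of its group. SB + TAA 4 held skeletal muscle transcripts, with 8030 CPM summed over 10 muscle genes against at most 34.2 in every other liver. SB + TAA 4 and NRas + saline 1 are the livers called apart below, and main counts are also given without both. Hepatocyte markers summed to 101000 to 121000 CPM in SB + saline, between 79800 and 118000 CPM with SB + TAA and 51300 to 91100 in the groups with oncogenes. Of these 10 markers, 4 were called lower in NRas + saline against SB + saline, where 6.03% of all genes were called in either direction. Neuron and Schwann cell markers summed to 4.37 to 24.6 CPM in all livers. In whole tissue, a change in the share of a cell type and a change in RNA per cell cannot be told apart.

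The members lie in a few clusters of the genome (GRCm38). Tubb2a (ENSMUSG00000058672, chr13:34074274-34078007, minus strand) and Tubb2b (ENSMUSG00000045136, chr13:34126748-34130466, minus strand) are neighbours with 48741 bases between them. Tuba1b (chr15:98931425-98934565), Tuba1a (chr15:98949841-98953551) and Tuba1c (chr15:99029891-99038105) also follow each other, with gaps of 15276 and 76340 bases. The other members stand alone, Tuba4a on chromosome 1, Tubb4b on 2, Tubb3 on 8, Tubb5 on 17 and Tubb6 on 18.

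The coding sequences of Tubb2a and Tubb2b have 1335 bases each and were 96.5% identical, so the pair is shown first as the case in which reads could be shared. The last 60 coding bases before the stop codon encode the tail and are printed from GENCODE M21 transcripts. They lie at chr13:34074471-34074530 and chr13:34127474-34127533 (GRCm38, minus strand, 5′ to 3′), in the exon that holds the tail. Capitals mark the 3 bases at which both differ. All 3 are the third base of a codon and change no amino acid, so this stretch encodes the same tail in both genes.
Tubb2a: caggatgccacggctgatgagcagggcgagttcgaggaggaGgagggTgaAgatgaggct
Tubb2b: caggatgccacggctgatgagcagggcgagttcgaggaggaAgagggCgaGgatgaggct
The libraries were primed at the poly(A) tail and read transcript ends. Over the last 300 transcript bases their alignment was 47.2% identical, close to the 42.1% to 52.0% of the other beta pairs. Tubb2a has 197 bases after its coding sequence and Tubb2b 726, so these 300 bases hold coding bases in Tubb2a only. The alignment thus sets unlike stretches side by side, and it does not show how far the ends that were read differ. Among the alpha genes the coding sequences of Tuba1a and Tuba1b were 98.3% identical and their last 300 bases 54.8%. Those 300 bases hold coding bases in both, since 200 and 160 bases follow the coding sequence. Reads below a mapping quality of 10 were not counted, and how far the closest pairs still exchange reads was not tested.

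Promoters are printed for 3 isotypes that passed the call thresholds in at least 1 comparison, from RefSeq (GRCm38.p6), from 250 bases before to 50 after the start. Of the 10 members 8 had an entry, and these 8 were searched on both strands. The letters searched were CCAAT, which factor NF-Y binds, and GGGCGG, the core of the box bound by Sp1. The core promoter element TATAAA, the AP-1 element TGANTCA, the cyclic AMP response element TGACGTCA and the E-box CACGTG were searched too. So were TTTGAA and then TTCGAA, forms of the cell-cycle homology region. Tubb2b and Tubb6 had no entry. Capitals mark every match on either strand.
Tubb2a, chr13:34077959-34078258, minus strand: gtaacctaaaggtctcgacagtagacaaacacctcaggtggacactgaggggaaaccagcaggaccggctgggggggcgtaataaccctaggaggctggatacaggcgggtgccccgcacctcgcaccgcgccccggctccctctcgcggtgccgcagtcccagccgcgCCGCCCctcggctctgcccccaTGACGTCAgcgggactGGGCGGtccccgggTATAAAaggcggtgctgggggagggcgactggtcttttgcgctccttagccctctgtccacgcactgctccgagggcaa
Tuba1b, chr15:98934341-98934640, minus strand: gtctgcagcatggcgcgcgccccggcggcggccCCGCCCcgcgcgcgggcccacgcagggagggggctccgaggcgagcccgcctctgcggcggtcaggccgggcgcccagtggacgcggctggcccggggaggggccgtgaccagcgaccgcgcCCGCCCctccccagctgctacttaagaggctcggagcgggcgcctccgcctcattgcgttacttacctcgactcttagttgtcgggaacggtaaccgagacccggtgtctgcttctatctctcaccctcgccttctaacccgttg
Tuba1a, chr15:98953452-98953751, minus strand: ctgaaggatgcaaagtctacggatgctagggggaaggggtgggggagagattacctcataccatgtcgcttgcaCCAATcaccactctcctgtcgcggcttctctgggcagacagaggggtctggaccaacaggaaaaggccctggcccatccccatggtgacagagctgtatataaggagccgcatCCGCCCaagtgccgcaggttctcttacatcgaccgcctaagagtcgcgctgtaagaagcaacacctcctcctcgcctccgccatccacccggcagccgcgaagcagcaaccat
In Tubb2a, TGACGTCA began 59 bases before the start, GGGCGG 43 and TATAAA 29. Tubb2a was the only member promoter of the 8 with TGACGTCA, which 1.79% of all 32851 promoters held. TATAAA was in 2 of the 8 (Tubb2a and Tubb4b) and in 13.6% of all promoters, GGGCGG was in 7 of 8 and 35.7%, and CCAAT in 5 of 8 and 37.4%. TGANTCA (7.81% of all promoters) and TTCGAA (1.56%) were in none of the 8. CACGTG (7.15%) was in 1, Tubb5, and TTTGAA (17.9%) in 1, Tubb4b. A match is a string of letters and not a binding site.

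Tubb2a, one of the main neuronal beta isotypes, had the highest mean CPM per kilobase of exon of the 10 members in all 6 groups. By mean CPM, Tuba4a was above Tubb2a in SB + saline (195 against 113) and in SB + TAA (150 against 135). In the groups with oncogenes Tubb2a was highest on that scale too. Tubb2a measured 27.4, 98.9, 170 and 156 CPM in the SB + saline livers, and 185, 58.0, 123 and 173 CPM with SB + TAA. In c-Met + saline it measured 440, 792 and 616 CPM and in NRas + saline 264, 473, 581 and 513 CPM. The livers with oncogenes and saline all stood above the livers without oncogenes, and the lowest of the 7 was the NRas liver with the least NRAS. The share of all genes with such a split was not counted.

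With oncogenes and TAA together, Tubb2a measured 187, 532, 484 and 464 CPM in c-Met + TAA. It measured 803, 899, 428, 407 and 751 CPM in NRas + TAA. Every one of these 9 livers was above every SB + TAA liver, although the lowest c-Met liver (187 CPM) was close to the highest SB + TAA liver (185 CPM). That c-Met liver is also the one with the least MET. The c-Met + TAA liver with the most MET (10.9 CPM) was not the highest, at 464 CPM of Tubb2a. In c-Met + saline, the liver with the most MET (5.56 CPM) had the lowest Tubb2a, 440 CPM. MET rests on 2 to 31 counts per c-Met liver.

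Tubb2b, its neighbour and an isotype typical of developing brain, also had its lowest levels without oncogenes, and lay far below Tubb2a on either scale, CPM or CPM per kilobase. Over 4 SB + saline livers it had 1 count (0.568 CPM in SB + saline 2 and 0 in the other 3), and over 4 SB + TAA livers 10 counts. It measured 3.24, 12.6 and 7.50 CPM in c-Met + saline and 0.879, 7.66, 12.5 and 7.49 CPM in NRas + saline. It measured 2.69, 7.39, 6.44 and 4.21 CPM in c-Met + TAA, and 18.7, 26.2, 11.9, 6.53 and 20.5 CPM in NRas + TAA. The SB + TAA livers had 0.672, 0, 1.53 and 0.811 CPM, below all 9 livers that received oncogenes and TAA.

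Because 1 count stands behind the SB + saline level of Tubb2b, its fold over that group has a wide counting interval. The pooled rate was 73.7 times that of SB + saline in c-Met + saline (95% exact interval 12.8 to 2960) and 69.2 times in NRas + saline (12.1 to 2760). These intervals cover counting error only and leave out the spread between livers.

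**Figure D1:**
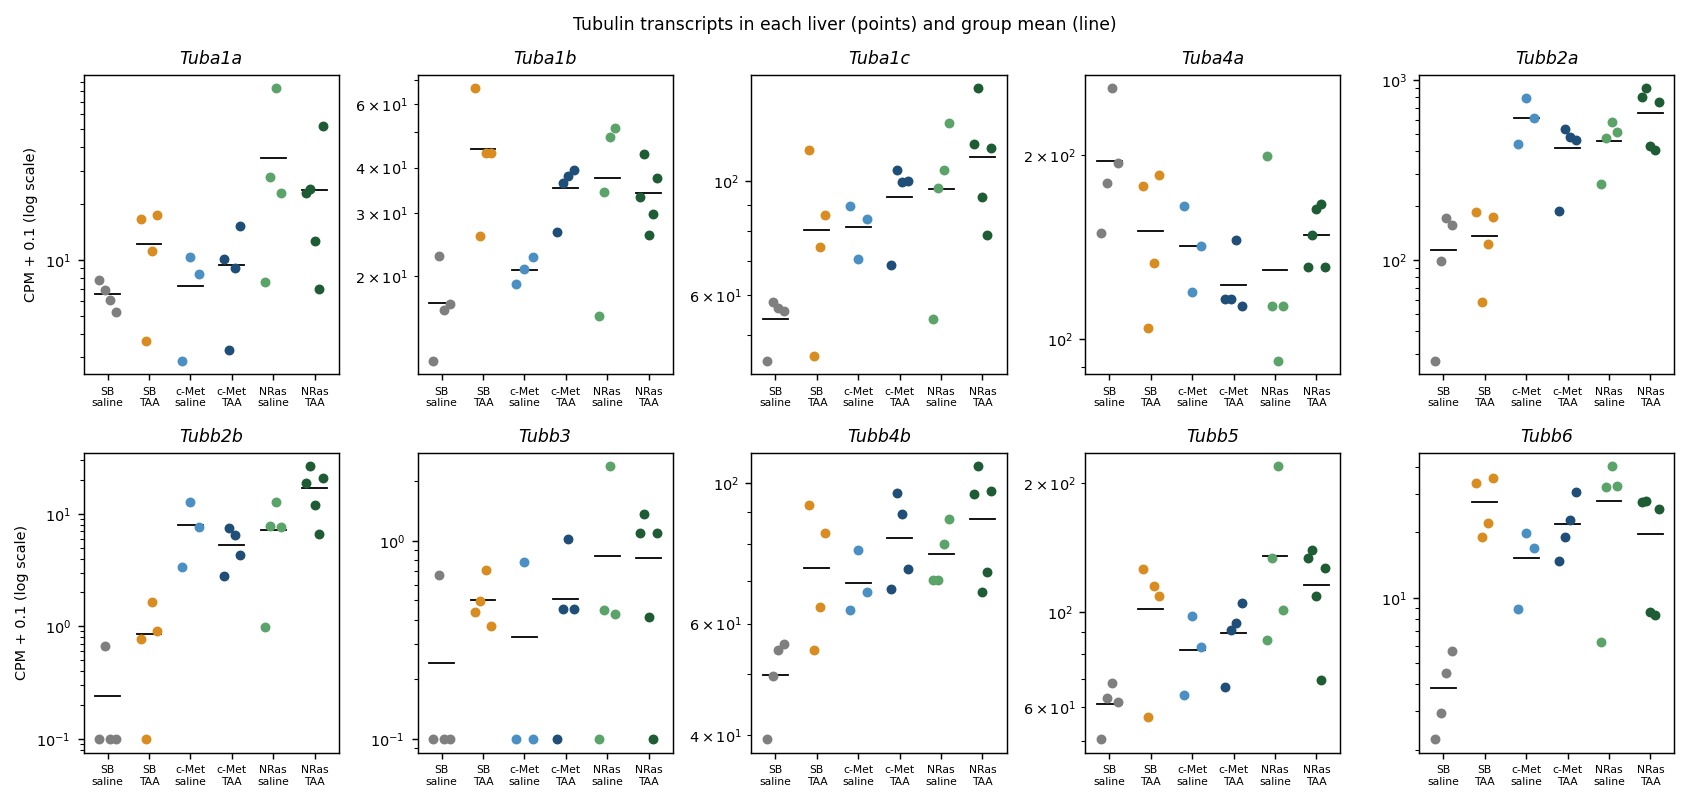
CPM + 0.1 on a log axis (vertical) of each of the 10 tubulin genes in each of the 24 livers (points) by group (horizontal), with the group mean as a line. Tubb2a and Tubb2b are higher in all 16 livers with oncogenes than the SB + saline livers, while Tuba4a has its highest mean, 195 CPM, in SB + saline with the TMM scaling used here. The share of all genes that split these 16 livers from SB + saline was not counted.

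The comparison of oncogenes plus TAA with TAA alone asks what the oncogenes add to an injured liver. Its contrast holds none of the saline livers, which enter only the estimate of spread. Genes were compared with edgeR's quasi-likelihood test in 1 model of all 24 livers, with Benjamini-Hochberg adjustment over 19381 genes, and called at an adjusted p under 0.05 and an absolute log2 fold change over 1. In NRas + TAA 2 of the 10 members were called, both higher, where 1.24% of all genes were called in either direction and 0.826% higher. Tubb2b was higher by 4.33 ± 0.60 on the log2 scale (± SE, edgeR adjusted p = 6.2e-05, 5 against 4 livers). Tubb2a was higher by 2.29 ± 0.40 (edgeR adjusted p = 0.00157). Neither gene overlapped between the groups, as was so for 2.89% of all genes in that direction. With both livers that stand apart left out, the values were 4.34 and 2.43. The other 8 lay between −0.50 for Tubb6 and 0.96 for Tuba1a, and none was called.

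In c-Met + TAA against SB + TAA no member was called by edgeR, against 0.397% of all genes. The largest differences were those of Tubb2a and Tubb2b. Tubb2a differed by 1.63 ± 0.41 (edgeR adjusted p = 0.0766) and Tubb2b by 2.65 ± 0.68 (edgeR adjusted p = 0.0934). Without both livers that stand apart the values were 1.78 and 2.67, and neither was called. Both had no overlap between the livers of the 2 groups, as 2.53% of all genes did in that direction. DESeq2 called Tubb2b (DESeq2 adjusted p = 0.0258), and without the filter on low counts edgeR called both. Tubb2a was also called without c-Met + TAA 1 (1.87, edgeR adjusted p = 0.0414), without SB + saline 1 (1.63, edgeR adjusted p = 0.0196) or without NRas + saline 1 (1.63, edgeR adjusted p = 0.0449). Tubb2b was called without NRas + saline 1 (2.65, edgeR adjusted p = 0.0282).

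Both comparisons share the 4 SB + TAA livers. The oncogene mixes were therefore also compared directly in livers with TAA, where 0.0103% of all genes were called and no member was. Tubb2b was higher in NRas than in c-Met livers by 1.68 ± 0.45 (edgeR adjusted p = 0.956), with overlap between 6.53 and 7.39 CPM. Tuba1a differed by 1.36 ± 0.54 (edgeR adjusted p = 0.956), the next largest difference. Without the filter on low counts 2 members were called here by edgeR.

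**Figure D2:**
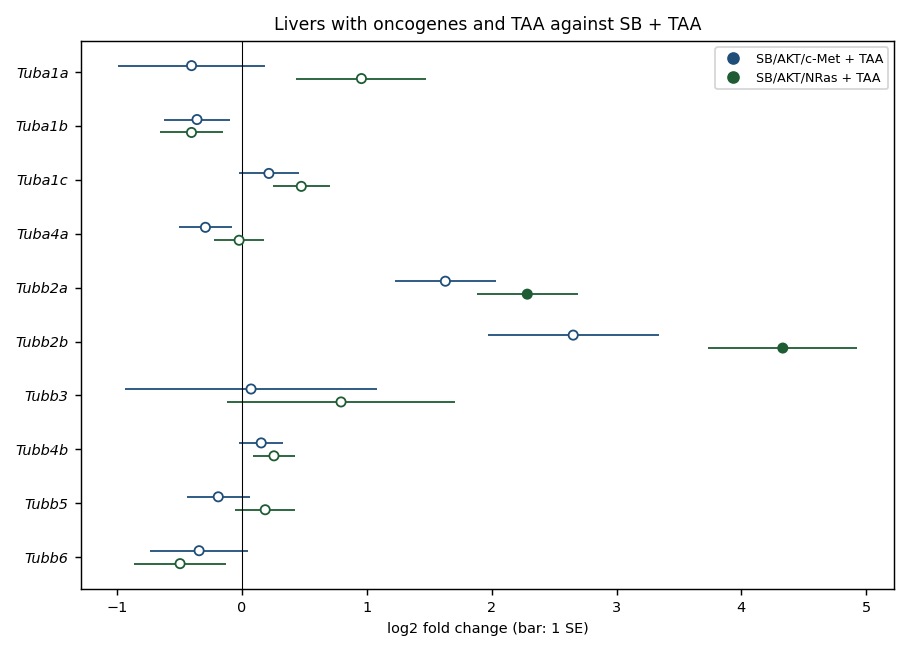
Log2 fold change (horizontal, bars 1 SE) of each member (vertical) in c-Met + TAA and NRas + TAA livers against SB + TAA. Filled points passed the call thresholds, which were Tubb2a and Tubb2b with NRas (2.29 and 4.33), and open points did not.

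Of all counts in the pair, Tubb2b took 0.0973% in SB + saline (95% exact binomial interval 0.00246 to 0.541) and 0.572% in SB + TAA (0.275 to 1.05). It took 1.29% in c-Met + saline (0.992 to 1.64), 1.23% in c-Met + TAA (0.942 to 1.58) and 1.61% in NRas + saline (1.29 to 1.97). In NRas + TAA it took 2.51% (2.23 to 2.82), and single livers of that group had 1.58% to 2.83%. Single livers of NRas + saline had 0.332% to 2.11%, so the livers of both NRas groups overlapped. The intervals are over pooled counts, cover counting error only and leave out the spread between livers.

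Across the 24 livers, log2 levels of Tubb2a and Tubb2b had a Pearson correlation of 0.896, given as a description, since livers of a group share their treatment. It was 0.598 after group means were removed. The 5 genes most like Tubb2a by this measure were Cidec (0.907), Tubb2b, Apoa4 (0.889), Gm10680 (0.879) and Slc16a6 (0.871), among genes with a mean of at least 1 CPM. Cidec encodes a lipid droplet protein and Apoa4 an apolipoprotein. Those most like Tubb2b were Cd36 (0.944), a fatty acid transporter, Cidec (0.928), AC132265.1 (0.921), Capns1 (0.921), a calpain subunit, and Cgref1 (0.918). Tubb2a ranked 14 on that list.

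In NRas + TAA against SB + TAA, Cidec was higher by 3.52 ± 0.42 (edgeR adjusted p = 1.2e-05) and Cd36 by 1.68 ± 0.27 (edgeR adjusted p = 5.5e-04). In c-Met + TAA the values were 2.54 ± 0.44 for Cidec (edgeR adjusted p = 0.00329) and 1.52 ± 0.28 for Cd36 (edgeR adjusted p = 0.00679). Of the other non-tubulin genes named, Apoa4, Slc16a6, AC132265.1 and Cgref1 were also called with NRas, at 1.57 ± 0.40 to 3.38 ± 0.74. Gm10680 and Capns1 were not. With c-Met none of these others was called, from 0.26 ± 0.17 for Capns1 to 2.86 ± 0.81 for AC132265.1. Genes were picked as alike over all livers, these included.

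Of the genes within 100 kb of the Tubb2a and Tubb2b span, 5 were tested. Against SB + TAA none was called with either mix. Against SB + saline, Serpinb6a was called higher in SB + TAA (1.53 ± 0.46, edgeR adjusted p = 0.0476) and in NRas + saline (1.85 ± 0.46, edgeR adjusted p = 0.0124), and Bphl lower in NRas + saline (−1.05 ± 0.25, edgeR adjusted p = 0.00964). Bphl, a hydrolase gene on the opposite strand, ends 200 bases from the end of Tubb2a. In NRas + TAA against SB + TAA it differed by −0.34 ± 0.23 (edgeR adjusted p = 0.641). Ripk1, a kinase of cell death signalling, differed by −0.12 ± 0.19, Serpinb6a, a protease inhibitor gene, by 1.03 ± 0.39 (edgeR adjusted p = 0.254), Psmg4, a proteasome assembly factor, by −0.42 ± 0.16 and the transporter gene Slc22a23 by −0.15 ± 0.22.

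Tubb6, a minor and widely expressed beta isotype, was the member with the largest difference between SB + TAA and SB + saline among those with more than a few counts. It measured 2.14, 2.84, 4.41 and 5.57 CPM in SB + saline and 33.6, 18.9, 22 and 35.4 CPM in SB + TAA. It measured 8.80, 19.8 and 16.9 CPM in c-Met + saline and 6.16, 32.4, 40.1 and 32.5 CPM in NRas + saline. All 20 treated livers were above the 4 SB + saline livers, and the lowest of them was again the NRas liver with the least NRAS. Group by group, 6.52% of all genes did not overlap SB + saline in that direction in SB + TAA. The shares were 5.28% in c-Met + saline and 5.07% in NRas + saline. A share for all 20 livers together was not counted.

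With oncogenes and TAA, Tubb6 measured 14.6, 19, 22.7 and 30.5 CPM in c-Met + TAA and 27.4, 27.8, 8.47, 8.25 and 25.6 CPM in NRas + TAA. These ranges overlapped that of SB + TAA. Tubb6 differed from SB + TAA by −0.34 ± 0.39 with c-Met and by −0.50 ± 0.37 with NRas, and neither was called.

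Tuba1b, the ubiquitous alpha isotype of cycling cells, measured 11.6, 22.7, 16 and 16.7 CPM in SB + saline and 66.2, 25.7, 43.7 and 43.8 CPM in SB + TAA. It measured 19, 20.8 and 22.5 CPM in c-Met + saline and 26.5, 36.2, 37.7 and 39.3 CPM in c-Met + TAA. It measured 15.4, 34.1, 48.6 and 51.4 CPM in NRas + saline and 33.0, 43.5, 26.0, 29.6 and 37.3 CPM in NRas + TAA. The c-Met livers with saline lay within the range of SB + saline, and the c-Met livers with TAA lay above it.

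As a description, 2 members passed the call thresholds in SB + TAA against SB + saline, where 4.17% of all genes did in either direction and 2.73% did so as higher. These were Tubb6 (2.85 ± 0.50) and Tuba1b (1.44 ± 0.29). In c-Met + saline 2 passed, Tubb2a (2.44 ± 0.44) and Tubb2b, where 0.619% of all genes did and 0.578% did so as higher. In NRas + saline 6 passed, Tuba1a, Tuba1b, Tubb2a, Tubb2b, Tubb5 and Tubb6, where 6.03% of all genes did and 4.71% did so as higher. All these members were higher than in SB + saline. The livers did not overlap for 2, 5 and 5 members in these 3 groups, in the higher direction, as was so for 6.52%, 5.28% and 5.07% of all genes. The median member differed from SB + saline by 0.84, 0.54 and 1.6 in the 3 groups, and the median of all genes by 0.09, 0.02 and 0.07. The members were chosen by values measured in livers of this series. Which comparison drew the choice is not recorded, and the members were taken as chosen from these contrasts. The 2, 2 and 6 were 2, 3 and 7 without both livers that stand apart. Without NRas + saline 3 the 6 became 3, with Tuba1a at 1.6, Tuba1b at 1.03 and Tubb5 at 0.81 no longer past both thresholds. The Tuba1b call also ended without NRas + saline 4 (0.99) or SB + saline 1 (1.03), and that of Tubb2b with c-Met without c-Met + saline 2 (a fitted 5.15, which rests on 1 count in SB + saline).

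Scaling touches these values. Genes took 15.6% to 16.69% of alignment records in the SB + saline livers and 20.68% to 23.13% of them with SB + TAA. With library size alone the median of all genes moved to 0.465 in SB + TAA, to 0.284 in c-Met + saline and to 0.504 in NRas + saline, each against SB + saline. Of all calls, 65.4% were higher in SB + TAA and 78.2% in NRas + saline with TMM factors, and 90.1% and 95.2% with library size alone. The members named above kept their direction under that scaling.

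Whether TAA acted alike with and without oncogenes is asked by a contrast of 4 groups. Since it holds saline livers it is a description here. In NRas livers 2 members passed the thresholds, both lower, where 0.748% of all genes were called in either direction and 0.583% lower. Tubb6 changed by 2.85 ± 0.50 with TAA in SB livers and by −0.53 ± 0.37 in NRas livers, a difference of −3.38 ± 0.62. For Tuba1b the difference was −1.59 ± 0.38, from 1.44 ± 0.29 in SB livers and −0.15 ± 0.25 in NRas livers. Tuba1b no longer passed under 19 of 33 alternatives, 16 of them the omission of 1 liver, and Tubb6 no longer passed under limma-voom. Without both livers that stand apart the values were −3.52 for Tubb6 and −1.84 for Tuba1b, and both passed. The median of all genes in this contrast was −0.11, and −0.516 with library size alone, where the values were −3.84 for Tubb6 and −2.06 for Tuba1b.

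In c-Met livers no member passed in the same contrast, where 0.0103% of all genes did. Tubb6 changed by 0.50 ± 0.45 with TAA in c-Met livers, a difference of −2.35 ± 0.68. In a fit of only the 4 groups 1 member passed. The difference between the c-Met and the NRas contrasts was not tested.

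**Figure D3:**
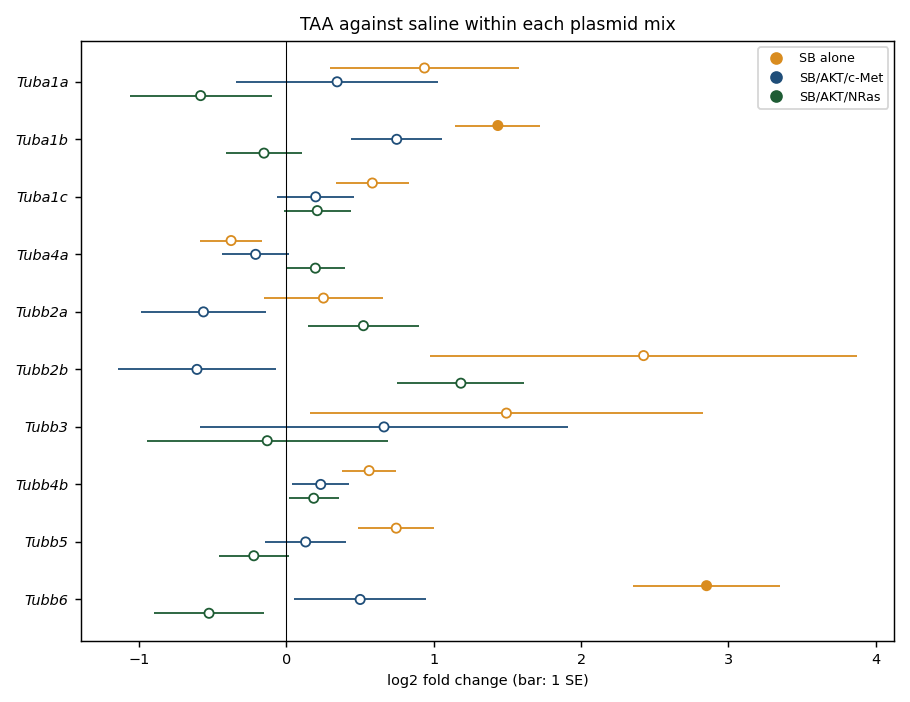
Log2 fold change with TAA against saline (horizontal, bars 1 SE) of each member (vertical) in SB, c-Met and NRas livers. Filled points passed the call thresholds, which were Tuba1b and Tubb6 in SB livers (1.44 and 2.85), and all 20 points of the livers with oncogenes are open.

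Within one oncogene mix, TAA against saline called no member by edgeR. For c-Met, 0.196% of all genes were called and the largest difference was that of Tuba1b (0.75 ± 0.31). Its livers did not overlap, as was so for 5.07% of all genes in that direction. For NRas, 0.16% of all genes were called and the largest difference was that of Tubb2b (1.18 ± 0.43). Without the filter on low counts 1 member was called for NRas. Both comparisons hold saline livers and are a description.

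Genes of the mitotic spindle and checkpoint were called in the same groups. Of 20 mitosis genes on a list, 17 were called higher in SB + TAA against SB + saline, none in c-Met + saline and 18 in NRas + saline. Of all genes, 2.73%, 0.578% and 4.71% were called higher in these groups. In the 4-group contrast of NRas, 9 of the mitosis genes were called lower, where 0.583% of all genes were. Without both livers that stand apart the counts of mitosis genes were 14, 2, 19 and 14. Cdc20, an activator of the anaphase ligase, differed by 3.70 ± 0.60 in SB + TAA and Tpx2, a spindle assembly factor, by 3.86 ± 0.64. The summed level of the list was 10.8 to 24 CPM in SB + saline, between 99.4 and 248 CPM with SB + TAA, and 18.1 to 80.7 CPM in c-Met + saline. It was 35.2 to 230 CPM in NRas + saline and 98 to 247 in both groups with oncogenes and TAA. The gene most like Tubb6 over the 24 livers was Ccna2, a cyclin, with a correlation of 0.945, and Prc1 (0.921), a spindle midzone protein, came next. Mmp12 (0.919), a macrophage elastase, and Nid1 (0.915), a basement membrane protein, followed. For Tuba1b the first were Lig1 (0.921), a DNA ligase, and Hells (0.911). Of 10 stellate cell and fibroblast markers, 5 were called higher in SB + TAA and 5 in NRas + saline, and of 10 macrophage markers 4 and 5. The shares of all genes called higher there were 2.73% and 4.71%. Stellate cell markers summed to 202 to 332 CPM in SB + saline and 403 to 849 CPM with SB + TAA, and macrophage markers to 160 to 328 and 356 to 409 CPM. The part of dividing, stellate or macrophage cells in the Tubb6 and Tuba1b levels was not tested.

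Tuba1a, the alpha isotype best known from developing neurons, varied widely among the NRas livers. It measured 5.14 to 7.70 CPM in SB + saline, 3.55 to 17.3 CPM in SB + TAA, 2.78 to 10.3 CPM in c-Met + saline and 3.17 to 15.1 CPM in c-Met + TAA. In NRas + saline it measured 7.47, 27.5, 82.9 and 22.8 CPM, and in NRas + TAA 22.7, 23.7, 12.5, 6.88 and 52.1 CPM. Human NRAS in the same livers was at 12.3, 55.3, 218 and 66.1 CPM with saline and at 34, 47.7, 18.5, 17.9 and 75.7 CPM with TAA. In both groups the liver with the most NRAS had the most Tuba1a and the liver with the least NRAS the least.

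Cholangiocyte markers were highest in the same livers. Summed over 10 genes they reached 154.3, 2592, 8819 and 925.6 CPM in NRas + saline and 1283, 1572, 340.2, 231.4 and 4770 CPM in NRas + TAA, against 62.1 to 106 in SB + saline, between 137 and 246 with SB + TAA, 50.9 to 385 in c-Met + saline and 96.4 to 639 in c-Met + TAA. Stellate cell markers in NRas + saline were also highest in the liver with the most NRAS, at 888.9 CPM against 244.5 to 742.9 in the other 3, and in NRas + TAA at 728.7 against 318.9 to 527. The 2 genes most like Tuba1a were Tspan8 (0.920) and Spp1 (0.916), and Spp1 is itself one of the 10 markers. With a mean of 930 CPM over the 24 livers, Spp1 makes up most of the summed cholangiocyte marker CPM, so the sums largely follow this 1 gene. Of 9 cholangiocyte markers that passed the filter, 3 were called higher in NRas + saline against SB + saline, where 4.71% of all genes were. Neuron and Schwann cell markers stayed at 7.47 to 24.6 CPM in the NRas livers. The part of cholangiocytes or stellate cells in the Tuba1a level was not tested.

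In NRas + saline against c-Met + saline, Tuba1a differed by 2.29 ± 0.65, and no member was called where 0.134% of all genes were. Without NRas + saline 1, alone or with SB + TAA 4, 2 members were called there. Tuba1b differed by 0.86 ± 0.31 and Tubb5 by 0.73 ± 0.28. Both groups are saline livers, and the values are a description.

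**Figure D4:**
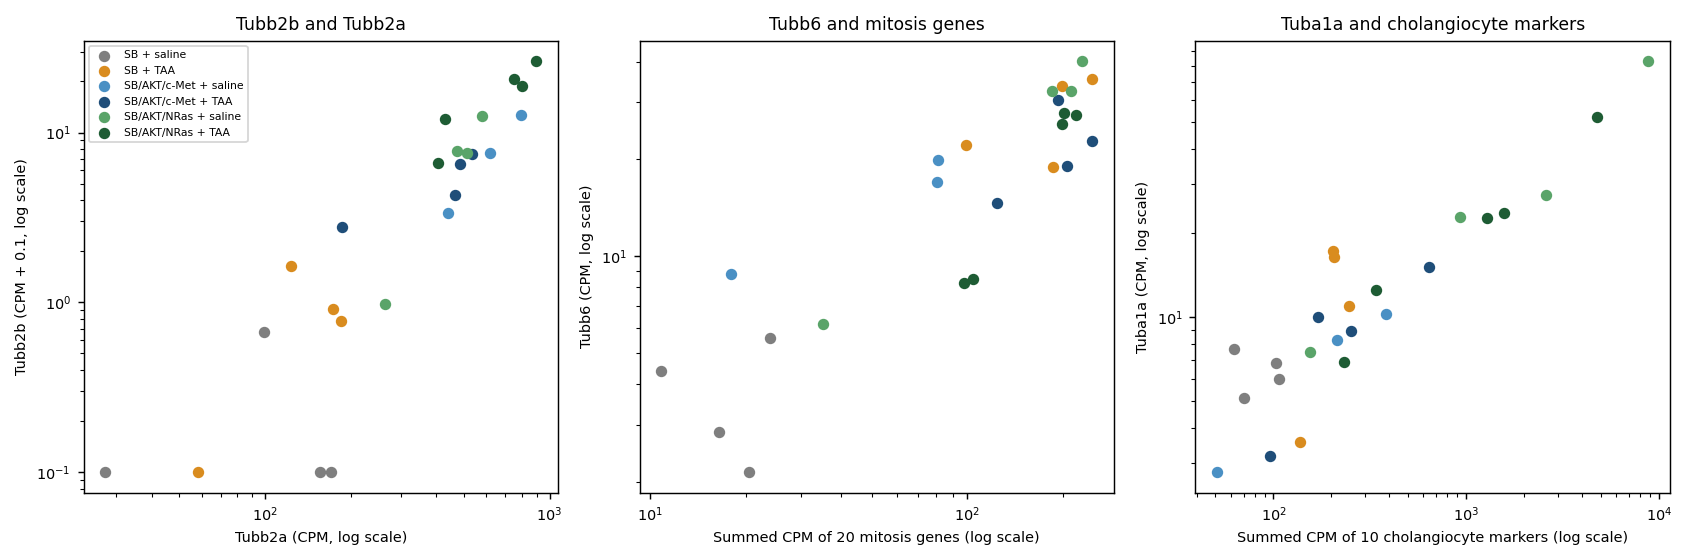
Each point is a liver, coloured by group, on log axes in CPM: Tubb2b (+ 0.1) against Tubb2a, Tubb6 against the sum of 20 mitosis genes, and Tuba1a against the sum of 10 cholangiocyte markers. Over all livers, most of the cholangiocyte marker sum is Spp1. The NRas + saline liver with 218 CPM of human NRAS is at the upper right for Tuba1a, at 82.9 CPM and 8820 CPM.

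The remaining members varied less. Tubb5, the main beta isotype of dividing cells, had means of 60.9 ± 7.5 CPM (SD, n = 4) in SB + saline and 102 ± 30.8 in SB + TAA. It had 135 ± 59.4 CPM in NRas + saline, where 1 liver reached 219 CPM. Without that liver the difference of 1.15 ± 0.26 from SB + saline was 0.81 and no longer called. Tubb4b, a ubiquitous isotype also used in cilia, had group means between 49.8 CPM in SB + saline and 87.7 CPM in NRas + TAA. Tuba1c ran from 53.7 CPM in SB + saline to 112 CPM in NRas + TAA. Neither Tubb4b nor Tuba1c was called in any of the 11 comparisons.

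Tuba4a, an isotype of non-dividing cells such as neurons, muscle and platelets, was the only member of the 10 with a lower mean in every other group than in SB + saline under TMM scaling, but not with library size alone. Its means were 195 CPM in SB + saline, 150 in SB + TAA, 142 and 122 in the c-Met groups and 129 and 148 in the NRas groups. Differences from SB + saline were −0.38 ± 0.21 in SB + TAA, −0.46 ± 0.23 in c-Met + saline and −0.60 ± 0.21 in NRas + saline, and none passed the call thresholds. With library size alone its means were 157 CPM in SB + saline, 160 in SB + TAA and 127 to 156 in the other groups, so the direction in SB + TAA turned.

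Tubb3, the isotype used as a neuron marker, had 35 counts in all 24 livers together and was above 0 in 16 of them. Its highest level was 2.27 CPM in NRas + saline 3, the liver with the most NRAS, from a range of 0 to 1.26 CPM in all other livers. Its pooled rate was 7.60 times that of SB + saline in NRas + saline (exact counting interval 1.08 to 330), with 10 counts against 1 and counting error only. No comparison called it.

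The make-up of the beta pool followed Tubb2a. Transcript ends were counted, so a gene's count need not grow with its length, and shares are given by CPM and by CPM per kilobase of exon. By CPM, Tubb2a was 45.5% ± 15.9 of the summed beta counts in SB + saline (SD, n = 4) and 38.4% ± 5.6 in SB + TAA. By CPM it was 77.7% ± 1.6 in c-Met + saline, 66.1% ± 7.4 in c-Met + TAA, 64.7% ± 3.5 in NRas + saline and 72.7% ± 2.5 in NRas + TAA. The highest value without oncogenes was 57.3% and the lowest with them 55.2%. By CPM per kilobase, Tubb2a was 56.3% ± 16.5 in SB + saline, 48.9% ± 6.3 in SB + TAA and 74.4% to 84.3% on average in the groups with oncogenes. On that scale too, the highest liver without oncogenes (68.3%) was above the lowest with them (65.2%).

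Summed beta CPM had means of 228 ± 80.3 in SB + saline, 339 ± 110 in SB + TAA and 615 to 898 in the groups with oncogenes. Summed alpha CPM had means of 251 to 317 in all 6 groups. Within the alpha pool, Tuba4a had by CPM per kilobase a share of 56.4% ± 4.8 in SB + saline and means of 30.6% to 40.2% in the other groups. Tuba1c had 29.5% ± 2.4 in SB + saline and means of 35.8% to 44.9% elsewhere. Tuba1b reached its highest mean share in SB + TAA, at 21.1% ± 2.2 against 9.66% ± 2.28 in SB + saline.

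**Figure D5:**
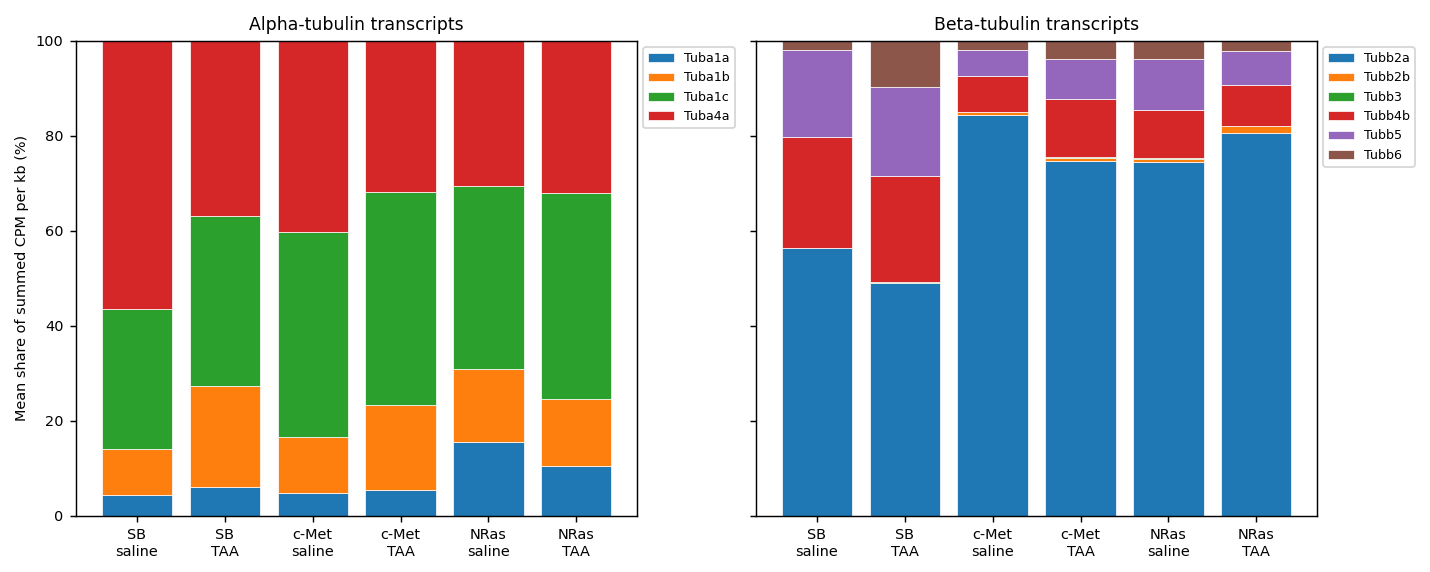
Mean share (vertical, %) of each isotype in the summed CPM per kilobase of the alpha genes and of the beta genes in each group (horizontal). Tubb2a is 56.3% of the beta sum in SB + saline and 84.3% in c-Met + saline, and Tuba4a is 56.4% of the alpha sum in SB + saline and 36.9% in SB + TAA.

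Of 10 further tubulin genes, 4 passed the filter, Tuba8 and the gamma, delta and epsilon genes Tubg1, Tubd1 and Tube1. Tuba3a, Tuba3b, Tubb4a and Tubg2 had 1 to 3 counts in all livers together, and Tubb1, the platelet isotype, and Tubal3 had 0. Tubg1, which nucleates microtubules at the centrosome, had group means of 16.7 to 21 CPM and was not called in any comparison.

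Tuba8, an alpha isotype of heart, skeletal muscle and testis, was not among the chosen members and differed with TAA. It measured 0.856, 1.14, 2.01 and 2.14 CPM in SB + saline and 3.02, 4.74, 5.50 and 29 CPM in SB + TAA, where the last value is from the liver with muscle transcripts. It measured 3.24, 3.08 and 3.37 CPM in c-Met + saline and 18.1, 19.4, 18.4 and 12.6 CPM in c-Met + TAA. It measured 3.52, 3.83, 4.54 and 8.14 CPM in NRas + saline and 23, 19.9, 8.78, 16.2 and 19.6 CPM in NRas + TAA. With either oncogene mix, every TAA liver was above every saline liver. With c-Met that was so for 5.07% of all genes, and the share with NRas is not given here.

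In the fit of all 24 livers, Tuba8 was called in SB + TAA against SB + saline (2.77 ± 0.60, edgeR adjusted p = 0.00592). It missed the threshold for TAA against saline with c-Met (2.39 ± 0.56, edgeR adjusted p = 0.0591) and with NRas (1.78 ± 0.44, edgeR adjusted p = 0.107). Without both livers that stand apart, the SB + TAA value was 1.46 ± 0.46 (edgeR adjusted p = 0.0735). The values with c-Met were then 2.39 ± 0.35 (edgeR adjusted p = 1.5e-04) and with NRas 1.65 ± 0.30 (edgeR adjusted p = 0.00489), both called. Against SB + TAA in the fit of all 24 livers, Tuba8 differed by 0.65 ± 0.42 with c-Met (edgeR adjusted p = 0.684). With NRas it differed by 0.68 ± 0.40 (edgeR adjusted p = 0.56), and neither was called. Without both livers that stand apart, Tuba8 was higher than in SB + TAA by 1.94 ± 0.32 with c-Met (edgeR adjusted p = 0.001) and by 1.97 ± 0.31 with NRas (edgeR adjusted p = 2.7e-04). Muscle genes summed to 7.68 to 12.9 CPM in the 9 livers with oncogenes and TAA, against 4.71 to 34.2 in SB + saline.

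Of 21 genes for folding, the prefoldin and TRiC subunits and the tubulin cofactors, none was called by edgeR in any of the 11 comparisons, and their summed level was 1310 to 1810 CPM in all livers. The same held for the 3 genes of tubulin mRNA autoregulation, Ttc5, Scaper and Cnot11, through which free tubulin lowers its own messages. Of 17 tested genes for tail and lysine modification 1 was called, Ttll7, a polyglutamylase that prefers beta-tubulin, higher by 1.45 ± 0.45 in NRas + saline against SB + saline (edgeR adjusted p = 0.043), where 6.03% of all genes were called.

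Of 27 tested genes for microtubule-associated proteins, 2 were called higher in SB + TAA, 2 in c-Met + saline and 3 in NRas + saline, each against SB + saline, where 2.73%, 0.578% and 4.71% of all genes were called higher. Without both livers that stand apart the counts were 2, 3 and 6. Gas2l3, which links actin and microtubules, was called in all 3 (1.79 ± 0.29, 1.64 ± 0.32 and 1.42 ± 0.30). Stmn1, which sequesters tubulin dimers, was called in SB + TAA (2.00 ± 0.56) and NRas + saline (1.86 ± 0.57). Mapre3, a plus-end binding protein, was called in c-Met + saline (1.34 ± 0.26) and Map1b, known from growing axons, in NRas + saline (2.22 ± 0.61). These 3 comparisons share the same 4 control livers.

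Among all 6 groups at once, 7 members passed edgeR's F test, where 9.01% of all genes did. The F test includes the SB + saline livers and is a description here.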

How the data were processed

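Liver RNA was sequenced in 24 libraries by the authors from poly(A)-primed, tagged cDNA. Per the study's methods, reads were demultiplexed with Sabre, aligned with STAR to GRCm38 plus human NRAS and MET, and filtered and deduplicated by molecular tag in RNAsik. The deposited values are raw counts per gene from featureCounts 1.6.4, counted on the forward strand with records under a mapping quality of 10 left out. The file header names no option to skip marked duplicates. The deposited summary puts 13.75% to 23.94% of records in genes and 43.95% to 54.79% below the mapping quality. No column belonged to another series.

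A gene was tested if 2 or more libraries reached 0.5 CPM (19381 genes). edgeR 4.0.16 in R 4.3.3 was used with TMM scaling, 1 quasi-likelihood model of 6 group means and 11 contrasts, with Benjamini-Hochberg adjustment over the genes tested. SE is the absolute log2 fold change divided by the root of F, and CPM is scaled by TMM. The script was tested on simulated data. Members, lists and the rule for named genes were chosen with earlier results of these data known. The rule took all members, the further tubulins with at least 1 CPM in a group, up to 4 genes of each list by how often they were called, the 5 genes most alike by Pearson correlation of log2(CPM + 0.5), and kept genes within 100 kb of the clusters. Cyclins and other genes set beside Tubb6, Tuba1a and Tuba1b lie outside it and were picked after their values were seen. Alternatives were limma-voom 3.58.1, DESeq2 1.42.0, RLE factors, library size alone, other filters, only the groups compared, a replicate block, each liver left out in turn, and both livers that stand apart left out. Transcripts and identities came from GENCODE M21 with Biopython 1.88, and intervals from scipy 1.17.1. Apart from the codons of the printed Tubb2a and Tubb2b tails, amino acid sequences were not analysed here, and neither was the AKT plasmid.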

Additional observations from a re-analysis of the deposited data

Results flagged for a closer look

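Within groups of 4 or 5 livers, 50 sets of member values were searched for a liver that stands far from the others, and 5 values did, where chance gives about 1 in 20. Tuba1c was low in c-Met + TAA 1, at 68.4 CPM with the next liver at 99.4. Tuba4a was high in c-Met + TAA 3, at 145 CPM with the next at 116. Tubb3 was high in NRas + saline 3, at 2.27 CPM with the next at 0.348. Tubb2b and Tubb3 were each at 0.568 CPM in SB + saline 2 and at 0 in the other 3 livers of that group, and each value is 1 count. A lone count among livers at 0 always passes this search, so the chance rate does not apply to Tubb2b and Tubb3 there.

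The change with TAA differed between NRas and SB livers past the call thresholds for Tubb6, by −3.38 on the log2 scale, and for Tuba1b, by −1.59. These contrasts hold saline livers that were taken as used in the choice of members, and the values are a description.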

How the results depend on the processing

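The higher Tubb2a and Tubb2b of NRas + TAA against SB + TAA were called under all 33 alternatives (log2 fold changes 2.03 to 2.47 and 4.00 to 4.85). No fold change followed through the alternatives, those of called or nearly called members, changed sign. Tuba4a in SB + TAA, which was not among them, had means of 157 and 160 CPM in SB + saline and SB + TAA with library size alone and of 195 and 150 CPM with TMM. Counts of members called moved by over 1.5 times in these cases. For c-Met + TAA against SB + TAA, 0 became 1 with DESeq2 and 2 without the filter. Without the filter it was also 1 for NRas + TAA against NRas + saline, 1 for both saline oncogene groups, 2 for both TAA oncogene groups and 1 for the 4-group contrast of c-Met. That last count was also 1 with only the groups compared. The 2 of the NRas contrast became 0 with limma-voom and 1 with only the groups compared. Both saline oncogene groups gave 2 without both livers that stand apart, and the F test gave 4 with limma-voom in place of 7. The cause was not tested. Leaving out 1 liver gave 2 to 2 members for SB + TAA and 1 to 3 for c-Met + saline, each against SB + saline, and 3 to 7 for NRas + saline, whose Tuba1a, Tuba1b and Tubb5 calls all ended without replicate 3. It gave 0 to 2 and 2 to 2 for the c-Met and NRas mixes with TAA against SB + TAA, 0 to 2 for NRas against c-Met with saline, 1 to 3 and 0 to 0 for the 4-group contrasts of NRas and c-Met, 5 to 9 for the F test and 0 to 0 for the other 3. Tubb2b in c-Met + saline was lost without replicate 2. Livers with the same number did not deviate together on average (mean correlation −0.00717, against 0.00211 for other pairs). No pairing by number was seen, although a mean over all genes cannot exclude one. With a replicate block the NRas contrast had 1 call and no other count moved by over 1.5 times. Tubb3 rests on 35 counts and the SB + saline level of Tubb2b on 1.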
